A study of Mus musculus with 4 samples.

Results

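Wnt3 and Wnt3a are 2 of the 140 genes that were counted in sections of the newborn mouse brain, and they were followed across all cell classes and positions of 4 coverslips. They were chosen by name, as the columns of the counted genes that carry these symbols. The assay was MERFISH, which identifies single RNA molecules of chosen genes in tissue by imaging a barcode over many rounds. In it, 40 blank barcodes that belong to no probe are decoded alongside the genes and measure false decoding. Each count below is a number of decoded molecules in a segmented cell, and each level is a mean count per cell unless another scale is named.

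All mice were at postnatal day 5, and the whiskers on the right side of the snout of every mouse had been lesioned 24 h earlier, at postnatal day 4. Coverslips 3 and 4 carried female and coverslips 1 and 2 male sections, and each coverslip held 1 section of a Cx3cl1(-/-) mouse and 1 of a wild-type mouse. The files do not tell which section is which, so no genotype or hemisphere was assigned and each coverslip pools both. The labels do not say whether 1 mouse gave sections to several coverslips, so the p-values measure the spread between coverslips. The labelled tissue is barrel cortex, but the sections are whole coronal sections and no label gives a brain region.

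Wnt3 and Wnt3a are secreted glycoproteins that carry a lipid and bind Frizzled receptors together with the co-receptors Lrp5 and Lrp6. This stabilises beta-catenin, which acts on genes through DNA-binding partners of the TCF/LEF family, to which Tcf7l2 and Lef1 belong. Slc17a6, a vesicular glutamate transporter, and Tcf7l2 are high together in the relay neurons of the thalamus, which send axons to the cortex. Wnt3 was described in the developing mouse brain in thalamic neurons, and Wnt3a in the cortical hem, a source of signals for the early hippocampus.

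The genes of both ligands lie on chromosome 11 of GRCm38.p6, Wnt3 at chr11:103774175-103818021 and Wnt3a at chr11:59248036-59290751. Their promoter windows in RefSeq run from 250 bases before to 50 bases after the start site, and both members had one. They are shown because a TCF/LEF factor, Tcf7l2, defines the neurons described below. The forms of the TCF/LEF motif searched, on either strand, begin with CTTTG and end with AA, AT, TA or TT, and capitals mark a match. No other motif was searched.
Wnt3: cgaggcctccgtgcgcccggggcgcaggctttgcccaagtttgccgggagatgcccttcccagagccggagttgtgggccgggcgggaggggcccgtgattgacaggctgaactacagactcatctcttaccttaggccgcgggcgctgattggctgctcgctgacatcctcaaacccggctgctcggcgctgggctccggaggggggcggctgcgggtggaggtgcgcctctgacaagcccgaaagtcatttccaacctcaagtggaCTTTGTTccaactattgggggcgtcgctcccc
Wnt3a: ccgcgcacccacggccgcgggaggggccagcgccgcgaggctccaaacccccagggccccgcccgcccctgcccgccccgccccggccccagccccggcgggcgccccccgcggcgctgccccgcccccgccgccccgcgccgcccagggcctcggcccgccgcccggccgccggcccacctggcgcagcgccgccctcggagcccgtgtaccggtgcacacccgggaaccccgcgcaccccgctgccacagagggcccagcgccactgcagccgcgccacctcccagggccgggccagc

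The Wnt3 window, chr11:103773925-103774224 on the plus strand, held 1 match, CTTTGTT, whose first base is base 19 after the start site. The Wnt3a window, chr11:59290702-59291001 on the minus strand, held none of these letters. Of 32851 promoter windows of the same length, 16.9% held at least 1 match. The windows also differed in base composition, with 65.7% G and C for Wnt3 and 86.3% for Wnt3a.

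The files held 863580 segmented cells, of which 794833 had at least 20 gene counts and were kept. All segmented cells held a median of 175 and 268 gene counts on the female coverslips 3 and 4, and 123 and 147 on the male coverslips 1 and 2, so that depth and sex moved together. Blanks took 1.16% to 1.48% of all counts. A marker counted as positive at 3 or more counts, and 64.9% to 72.6% of kept cells fell into 1 of 16 classes defined by markers other than Wnt3 and Wnt3a. Cells positive for both Slc17a6 and Tcf7l2, and for no marker set of a GABA or non-neuronal class, are called gated neurons below. They could also be positive for Rorb, Cux2 or Bcl11b. They numbered 10053 and 11835 on coverslips 3 and 4, and 6565 and 8872 on coverslips 1 and 2.

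Wnt3 was high in the gated neurons. Its level there was 1.57 and 2.08 counts per cell on coverslips 3 and 4, and 0.979 and 1.08 on coverslips 1 and 2. In all other gated cells it was 0.170 and 0.247 on coverslips 3 and 4, and 0.121 and 0.147 on coverslips 1 and 2. The lowest gated-neuron value lay above the highest value of the other cells, and all 4 coverslips separated the groups. Counts summed per coverslip and class were compared in an edgeR quasi-likelihood fit with cell volume as offset, coverslip as block and a test against a 2-fold difference. Wnt3 per cell volume was 7.79-fold higher in the gated neurons (log2 2.96 ± 0.09, SE, adjusted p = 9.74e-06 over 114 genes by edgeR). The log2 ratio was 3.20 and 2.96 on coverslips 3 and 4, and 2.94 and 2.74 on coverslips 1 and 2. An exact sign-flip test over these 4 ratios gave its smallest possible two-sided p, 0.125. The same fit called 14 genes higher (12.3%), and Wnt3 had the largest difference of the 114.

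The margin above false decoding set the members apart. In the gated neurons the highest of the 40 blanks stood at 0.486 and 0.365 counts per cell on coverslips 3 and 4, and at 0.589 and 0.732 on coverslips 1 and 2. Wnt3 exceeded every blank there on 4 of 4 coverslips and stood at 3.02 ± 1.95 times the highest blank (SD, n = 4). In the other gated cells it exceeded every blank on coverslip 4 alone, so the fold given above sets gated neurons against a level partly within the blanks. The share of gated neurons with 0 Wnt3 counts was 36.1% and 27.5% on coverslips 3 and 4, and 48.4% and 43.6% on coverslips 1 and 2, lower on the deeper coverslips. Counts of 3 or more were held by 22.99% and 33.4% of gated neurons on coverslips 3 and 4 and by 11.97% and 13.5% on coverslips 1 and 2, against 0.669%, 1.27%, 0.357% and 0.382% of the other gated cells in the same order. The spread of Wnt3 among gated neurons exceeded counting noise. Its variance was 2.19 and 2.23 times its mean on coverslips 3 and 4, and 1.68 and 1.63 times on coverslips 1 and 2. No blank passed 1.28, but this ratio can also rise with the mean level, and every blank lay below Wnt3.

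Wnt3a stayed among the blanks. Its level in the gated neurons was 0.240 and 0.189 counts per cell on coverslips 3 and 4, and 0.183 and 0.214 on coverslips 1 and 2. On coverslips 3 and 4, 5 and 16 of the 40 blanks lay at or above Wnt3a in these neurons, and on coverslips 1 and 2, 7 and 3 did. Wnt3a exceeded every blank on 0 of 4 coverslips in the gated neurons, and it reached at most 0.519 times the highest blank. Its variance was 1.03 to 1.09 times its mean, where pure counting noise gives a variance equal to the mean, and it lay within the range of the blanks. No gated neuron on any coverslip held 5 or more Wnt3a counts, and the highest count was 4.

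The ratio between classes was also within the reach of the blanks for Wnt3a. The fit called it 2.57-fold higher in the gated neurons than in all other gated cells (log2 1.36 ± 0.06, SE, adjusted p = 8.75e-04 by edgeR, higher on 4 of 4 coverslips). The other cells held 0.0849 and 0.0721 counts per cell on coverslips 3 and 4, and 0.0667 and 0.0801 on coverslips 1 and 2, where 10 to 25 blanks lay at or above it. Blanks were also higher in the gated neurons: their log2 ratio per volume had a median of 0.61 over the 40, and 1 blank, Blank-12, reached a mean of 1.33 against 1.36 for Wnt3a and 2.96 for Wnt3. On 3 of the 4 coverslips at least 1 blank exceeded Wnt3a, and on none did a blank exceed 1.60. The call of Wnt3a was lost with scaling to total counts (log2 0.63), with TMM factors (1.08, adjusted p = 0.262) and with no replicate block (adjusted p = 0.0636).

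**Figure D1:**
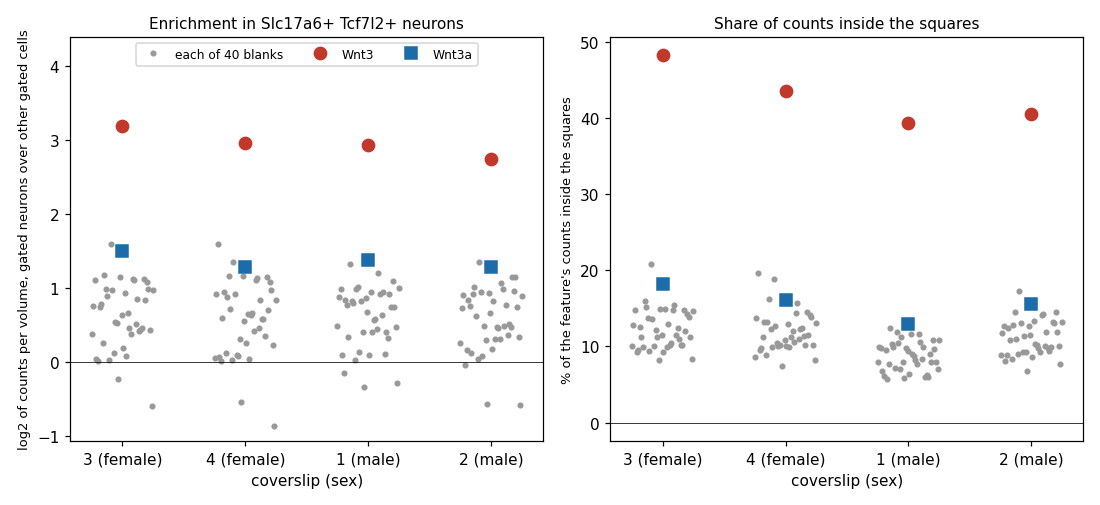
Left, log2 ratio of counts per cell volume in the gated neurons over all other gated cells; right, percent of each feature's counts that lay in the squares rich in gated neurons, on each coverslip (sex in brackets). Red circles are Wnt3, blue squares Wnt3a and grey points each of 40 blanks. Wnt3 stands apart at 2.74 to 3.20 on the left and 39.4% to 48.3% on the right, while Wnt3a lies at the upper edge of the blanks.

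Among the 16 classes, Wnt3 per volume was highest in the gated neurons, at 1.62 ± 0.576 counts per 1000 volume units (SD, n = 4). Cells positive for Tcf7l2 but low in Slc17a6 came next, at 0.680. The gated neurons were higher by the 2-fold test in 14 of 15 pairwise fits by edgeR. In the exception, the Tcf7l2+ Slc17a6-low cells, the log2 difference was 1.24 ± 0.16 (SE, adjusted p = 0.167 in the 2-fold test). The levels were 1.43 against 0.397 counts per cell. Tested against no difference, the same pair differed (edgeR, adjusted p = 1.89e-08, higher on 4 of 4 coverslips). The share of genes called higher was 1.75% in that exception, 7.02% against Slc17a6+ Tcf7l2-low neurons and 3.51% against Tcf7l2+ GABA neurons. Against the remaining neuronal classes it was 10.5% for interneurons, 17.5% for striatal-type and 14.9% for other GABA neurons, 14.9% for layer 4-type, 15.8% for upper-layer-type and 9.65% for deep-layer-type neurons. Against non-neuronal classes it was higher, at 35.1% for astrocytes, 67.5% for microglia, 43.9% for border macrophages, 51.8% for OPC, 26.3% for newly formed oligodendrocytes and 41.2% for vascular cells.

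Below these 2 classes the levels ran from 0.300 to 0.0658. Slc17a6+ Tcf7l2-low neurons (0.300 per 1000 volume units), layer 4-type neurons positive for Rorb and Cux2 (0.297), Tcf7l2+ GABA neurons (0.291), astrocytes (0.264) and Cux2+ upper-layer-type neurons (0.249) followed each other. None of these 4 neighbouring pairs differed in a test against no difference (edgeR, adjusted p from 0.500 to 0.894). Neighbours were formed by sorting the classes on these same Wnt3 levels. The direction of each difference was thus set in advance, and the p-values between neighbours do not establish the order. Further down, upper-layer-type neurons were above other GABA neurons (log2 0.41 ± 0.06, SE, adjusted p = 9.11e-04), interneurons above striatal-type GABA neurons (0.14 ± 0.06, adjusted p = 0.0187), newly formed oligodendrocytes above OPC (0.43 ± 0.13, adjusted p = 0.0147) and OPC above microglia (0.43 ± 0.11, adjusted p = 6.88e-04), and the remaining neighbours did not pass the test. The difference between the gated neurons and the Slc17a6+ Tcf7l2-low neurons was 5.32-fold (log2 2.41 ± 0.09, SE, adjusted p = 9.20e-07). At the lower end stood oligodendrocyte precursors (OPC, 0.109), microglia (0.0821) and vascular cells (0.0658), whose Wnt3 was 14.8-fold, 20.04-fold and 23.9-fold below that of the gated neurons. Border macrophages (0.0865) numbered at most 80 cells per coverslip and were listed at 0 Wnt3 counts on 1 of them. Wnt3 exceeded every blank on 0 coverslips in interneurons, every GABA class, newly formed oligodendrocytes, OPC, microglia, border macrophages and vascular cells. It did so on 1 coverslip in upper-layer-type, deep-layer-type and Slc17a6+ Tcf7l2-low neurons, and on 2 in layer 4-type neurons. The order of these classes, and the folds against them, thus rest on levels at least partly within the blanks.

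Astrocytes broke this order in 1 respect. Their mean Wnt3 level, 0.219 and 0.314 counts per cell on coverslips 3 and 4 and 0.173 and 0.169 on coverslips 1 and 2, was low but exceeded every blank on 4 of 4 coverslips. Of the other classes, only the gated neurons did so on 4 coverslips. Wnt3a exceeded every blank in none of the 16 classes on any coverslip, and 7 of 15 pairwise fits called it higher in the gated neurons. Of these 7 fits, 6 were against non-neuronal classes (astrocytes, microglia, border macrophages, OPC, newly formed oligodendrocytes and vascular cells) and 1 against striatal-type GABA neurons.

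**Figure D2:**
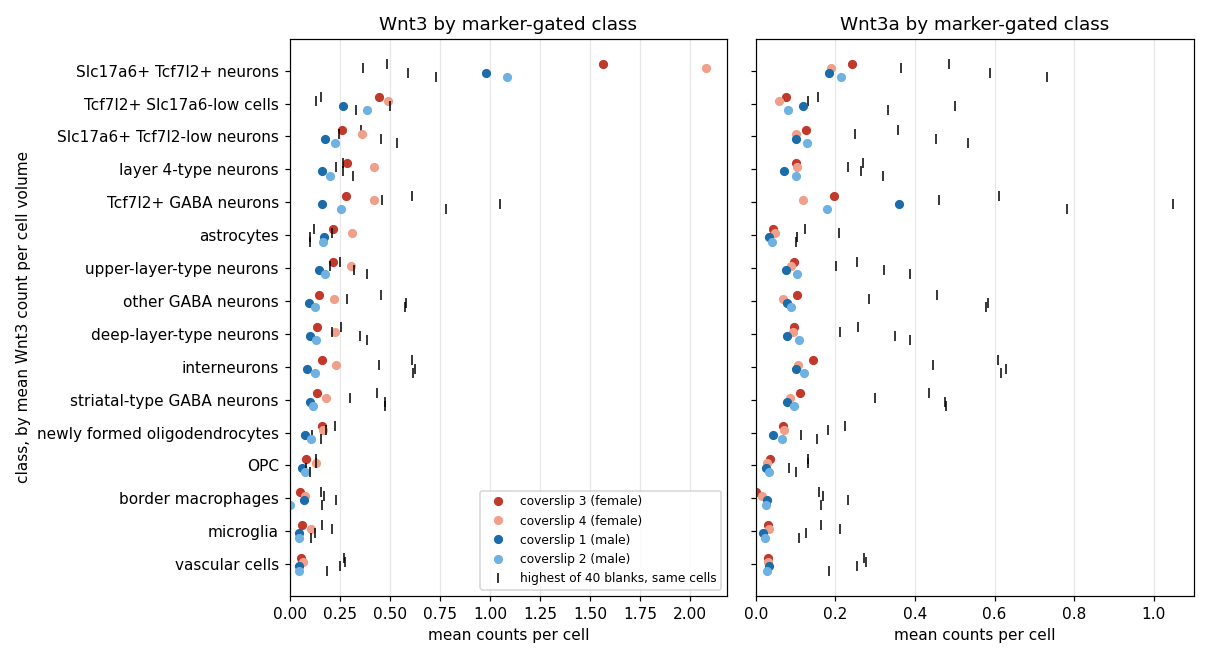
Mean counts per cell of Wnt3 (left) and Wnt3a (right) in each of 16 marker-gated classes, ordered from the top by mean Wnt3 count per cell volume. Points are coverslips and black ticks the highest of 40 blanks in the same cells. Wnt3 in the gated neurons, at 0.979 to 2.08, lies right of its ticks on every coverslip, and Wnt3a lies left of them in each class.

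In space, Wnt3 counts were concentrated in the field of gated neurons on each of the 8 sections, although most counts on each coverslip lay outside it. The field was delimited without Wnt3, as the squares of side 200 (in the coordinate units of the files) in which at least 20% of kept cells were gated neurons. There were 157 and 162 such squares on coverslips 3 and 4, and 101 and 148 on coverslips 1 and 2. They held 9.76% and 9.48% of the kept cells on coverslips 3 and 4, and 7.10% and 9.35% on coverslips 1 and 2. The same squares held 48.3% and 43.6% of all Wnt3 counts on coverslips 3 and 4, and 39.4% and 40.6% on coverslips 1 and 2. By this share Wnt3 ranked 2, 3, 2 and 2 of 140 genes on coverslips 3, 4, 1 and 2. Wnt3a placed 18.2%, 16.1%, 12.9% and 15.6% of its counts there in the same order, and the highest blank 20.8%, 19.6%, 12.5% and 17.2%.

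The pattern recurred in each section. Wnt3 in the gated neurons stood at 1.37 and 1.76 counts per cell in the sections of coverslip 3, and at 2.05 and 2.11 in those of coverslip 4. It stood at 1.05 and 0.887 in those of coverslip 1, and at 0.943 and 1.22 in those of coverslip 2. The log2 ratio per volume over the other gated cells ran from 2.46 to 3.25 over the 8 sections, and 0 of 40 blanks reached Wnt3 in any of them. Since each coverslip pairs a Cx3cl1(-/-) with a wild-type section, both genotypes are among these 8 sections, but a difference between them could not be tested.

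**Figure D3:**
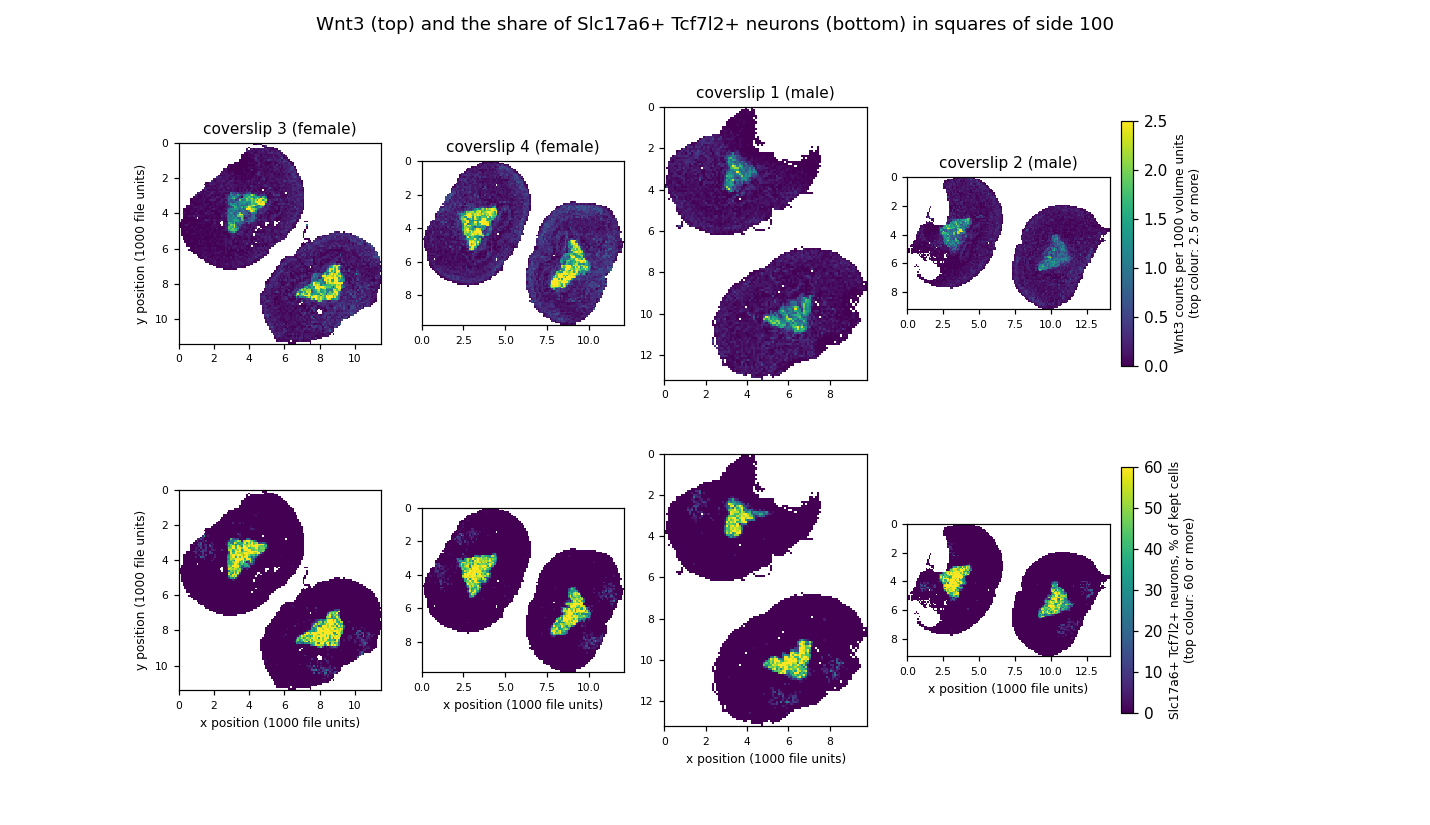
Maps of the 4 coverslips, each with 2 coronal sections, in squares of side 100 with at least 4 kept cells; axes are positions in units of 1000 file units. Colour gives Wnt3 counts per 1000 units of cell volume (top) and gated neurons as a percent of kept cells (bottom), both capped at the top colour. The bright Wnt3 field of each section lies on the field of gated neurons, which held 39.4% to 48.3% of Wnt3 counts.

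Inside these squares, Wnt3 was not limited to the gated neurons. Set against the other gated cells of the same squares, the gated neurons held 1.52 against 0.627 counts per cell. The log2 difference per volume was 0.87 ± 0.10 (SE, n = 4), higher on 4 of 4 coverslips. Being below 2-fold, it could not pass the 2-fold test by edgeR, which does not speak to a smaller difference. With scaling to total counts in place of volume the difference was -0.11. The fit with volume called 20.2% of genes higher, among them Wnt3a (log2 1.46 ± 0.09, adjusted p = 6.14e-04), at 0.208 against 0.0589 counts per cell and within the blanks. Of the Wnt3 counts of gated classes in these squares, 75.1% ± 3.81 came from the gated neurons and 12.8% ± 2.43 from astrocytes, which made up 56.4% ± 2.78 and 10.9% ± 1.08 of the cells (SD, n = 4).

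Astrocytes of the neuron-rich squares also carried Wnt3, far above astrocytes elsewhere. They were gated by at least 2 of Slc1a3, Aqp4, Aldh1l1 and Gfap, and those also positive for both Slc17a6 and Tcf7l2, or for Gad1 or Gad2, were set aside as mixed. Inside the squares they held 1.27 and 1.65 Wnt3 counts per cell on coverslips 3 and 4, and 1.23 and 0.966 on coverslips 1 and 2. Astrocytes outside held 0.126 and 0.200 on coverslips 3 and 4, and 0.105 and 0.105 on coverslips 1 and 2. The groups did not overlap: the lowest value inside was well above the highest outside, and 0 of 40 blanks reached Wnt3 in the astrocytes inside, where the highest blank was 0.113 to 0.215. Wnt3 per volume was 9.84-fold higher inside (log2 3.30 ± 0.11, SE, adjusted p = 7.21e-07 by edgeR against no difference), the largest of 114 differences. The fit called 18.4% of genes higher and 45.6% lower inside, so astrocytes of the 2 places differed in most tested genes. The outside level lay near the highest blank, which was 0.101 to 0.211.

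The levels recurred in each section, with 545 to 1169 astrocytes inside. They were 1.23 and 1.32 on coverslip 3, 1.48 and 1.83 on coverslip 4, 1.37 and 1.09 on coverslip 1, and 0.955 and 0.977 on coverslip 2, against 0.0997 to 0.234 in the astrocytes outside. Per volume, gated neurons and astrocytes of these squares did not pass a test of difference (log2 0.10 ± 0.11, SE, edgeR, adjusted p = 0.421), at 1.52 and 1.28 counts per cell. As a share of all gene counts Wnt3 was lower in the gated neurons than in these astrocytes (log2 -0.93 ± 0.11, SE, adjusted p = 5.17e-05), and the median count per cell was 410.5 in the neurons and 199.0 in the astrocytes (means of 4 coverslips). The order of the classes thus depended on the scale. These fits per volume called 66.7% of genes higher and 23.7% lower in the neurons.

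Segmentation can assign a molecule to a neighbouring cell, and its part in the astrocyte level was not tested from molecule positions. Cells of other classes in the same squares were therefore set beside the astrocytes. OPC held 0.257 ± 0.0848 Wnt3 counts inside and 0.0676 ± 0.0221 outside. Microglia held 0.168 ± 0.0863 and 0.0543 ± 0.0229, and vascular cells 0.142 ± 0.0346 and 0.0437 ± 0.00618 (SD, n = 4 each). Of these, OPC (log2 2.02 ± 0.12, SE, adjusted p = 1.01e-06, 23.7% of genes called higher) and vascular cells (log2 1.66 ± 0.11, adjusted p = 3.27e-09, 7.89% called higher) passed the edgeR test of inside against outside, and microglia, with under 200 cells inside on at least 1 coverslip, were not fitted in this comparison. The vascular level inside lay below the highest blank, 0.234, the microglial level near it (0.159) and the OPC level above it (0.122). Astrocytes inside stood above OPC inside by 4.62-fold (log2 2.21 ± 0.12, SE, adjusted p = 8.47e-07), where 55.3% of genes were called higher. They stood above vascular cells by 9.12-fold (log2 3.19 ± 0.11, adjusted p = 4.29e-10) and above microglia, which numbered 165 to 280 inside, by 7.25-fold (log2 2.86 ± 0.15, adjusted p = 1.36e-08, all by edgeR, higher on 4 of 4 coverslips), where 58.8% and 78.9% of genes were called higher. The difference between inside and outside was itself larger in astrocytes than in OPC (log2 difference 1.28 ± 0.16, SE, adjusted p = 9.54e-06, 8.77% of genes called in this direction) and than in vascular cells (1.64 ± 0.16, adjusted p = 2.90e-07, 16.7% called).

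The neuronal marker Slc17a6 was read in the same astrocytes. It stood at 0.682 counts per cell in astrocytes inside against 0.348 outside, and at 9.59 in the gated neurons inside. The 3363 astrocytes inside without a single Slc17a6 count held 1.10 ± 0.219 Wnt3 counts per cell, against 0.113 ± 0.0335 in such astrocytes outside (SD, n = 4 each). The matching OPC inside held 0.197 ± 0.0554, vascular cells 0.108 ± 0.0180 and microglia 0.120 ± 0.0629. Meg3, an RNA abundant in neurons, stood at 3.27 counts per cell in the Slc17a6-free astrocytes inside, at 5.59 in those outside and at 174 in the gated neurons inside. The difference of Wnt3 between inside and outside was as large in Slc17a6-free astrocytes (log2 3.37 ± 0.09, SE, adjusted p = 6.08e-08 by edgeR) as in all astrocytes. In the fit of all astrocytes, 18.4% of genes were called higher and 45.6% lower. Whether Slc17a6-free astrocytes held molecules of neighbouring cells was not tested. Tcf7l2, which took part in the choice of the squares, was also higher in astrocytes inside, at 7.40 against 1.08 counts per cell. Counts of 3 or more Wnt3 molecules were held by 9.88% to 25.4% of astrocytes inside and by 0.250% to 1.11% of those outside.

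**Figure D4:**
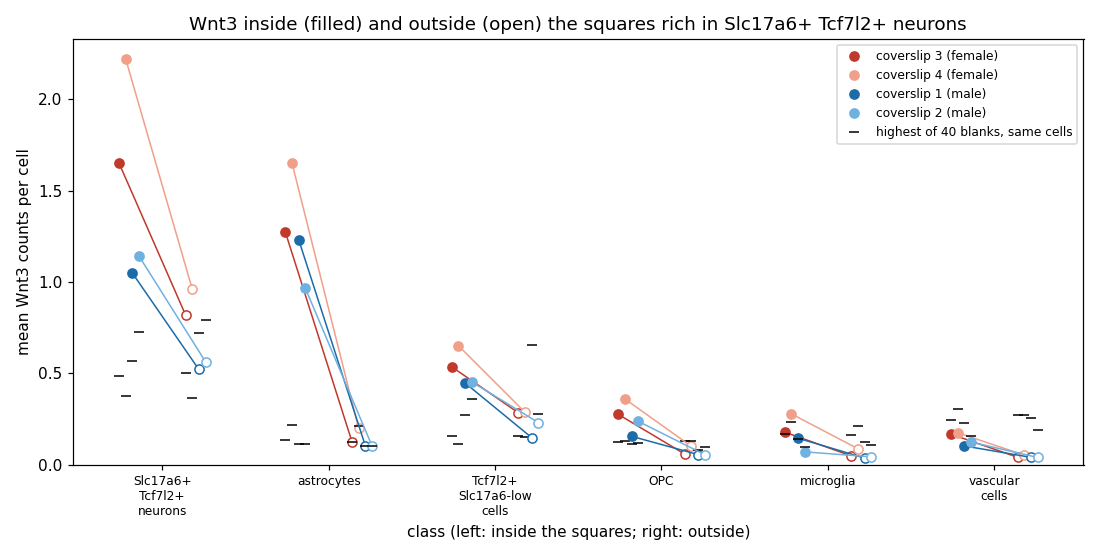
Mean Wnt3 counts per cell in 6 classes inside (filled, left) and outside (open, right) the squares rich in gated neurons; lines join the values of 1 coverslip and black ticks give the highest of 40 blanks in the same cells. Astrocytes inside reach 0.966 to 1.65, close to the gated neurons, while OPC, microglia and vascular cells of the same squares reach at most 0.360.

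Of the 57 tested genes of the Wnt lists, 12 (21.1%) were called higher and 22 (38.6%) lower in astrocytes inside the squares, with a median log2 difference of -0.15, against 18.4% higher and 45.6% lower and a median of -0.18 over all 114 genes. The genes named next were picked after the values were seen, as the largest differences in each direction. The Frizzled gene Fzd10 was 6.42-fold higher inside (3.31 against 0.515 counts per cell, log2 2.68 ± 0.10), and the receptor gene Fzd9 was 2.12-fold higher (1.82 against 0.871). Wls, whose product carries Wnt ligands to the cell surface, was 2.32-fold higher at 0.641 against 0.281 counts per cell. Lower inside were Sfrp1, a secreted Wnt antagonist (0.140 against 1.01), Fzd2 (0.138 against 0.870) and Emx2, a transcription factor gene of the cortex outside the Wnt lists (0.0806 against 0.327). Their levels inside lay near or below the highest blank of these astrocytes, 0.144 on average. Wnt3a was at 0.0451 inside and 0.0403 outside, with a log2 difference of 0.18 ± 0.11 (SE, adjusted p = 0.186), at a level within the blanks.

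Among the other neurons inside the squares, some classes held Wnt3 above the blanks and GABA classes mostly did not. The few Slc17a6+ Tcf7l2-low neurons there, 87 to 226 per coverslip, held 0.854 ± 0.351 counts per cell against 0.236 ± 0.0770 outside (SD, n = 4). Cux2+ upper-layer-type cells, 33 to 72 per coverslip, held 1.53 ± 0.579 inside against 0.207 ± 0.0676 outside. Their markers also differed with place, at 6.37 Slc17a6 and 1.20 Tcf7l2 counts inside against 2.27 and 0.118 outside. The cells of this gate inside may therefore not be upper-layer neurons. Interneurons inside held 0.262 and other GABA neurons 0.209, below their highest blanks of 0.664 and 0.397, and Tcf7l2+ GABA neurons held 0.466, at their highest blank of 0.458 (means of 4 coverslips). The Tcf7l2+ Slc17a6-low cells held 0.522 against 0.238, a 3.21-fold difference per volume (log2 1.68 ± 0.21, SE, adjusted p = 4.96e-06 by edgeR, where 20.2% of genes were called higher). In the gated neurons themselves Wnt3 was 2.11-fold higher inside (1.52 against 0.717 counts per cell, log2 1.08 ± 0.06, adjusted p = 7.49e-06, 28.1% of genes called higher). The squares held 86.8% to 90.1% of all gated neurons.

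With distance, the astrocyte level dropped steeply. Astrocytes within 100 units of a gated neuron of the squares held 0.830 to 1.44 Wnt3 counts over the 4 coverslips. Between 100 and 200 units they held 0.188 to 0.396, between 200 and 400 units 0.103 to 0.190, and beyond 400 units 0.0731 to 0.176. The highest blank was 0.0816 to 0.247 over these distances, so that beyond 200 units Wnt3 in astrocytes lay close to the blanks.

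Within the gated neurons, Wnt3 was uneven from place to place. Squares with at least 20 gated neurons numbered 163 and 176 on coverslips 3 and 4, and 104 and 153 on coverslips 1 and 2. From the 10th to the 90th percentile of these squares the Wnt3 level ran from 0.711 to 2.71 on coverslip 3, 1.14 to 3.43 on coverslip 4, 0.368 to 1.59 on coverslip 1 and 0.507 to 1.75 on coverslip 2. The squared deviation between squares was 19.8 and 22.5 times that of counting noise on coverslips 3 and 4, and 10.5 and 10.3 times on coverslips 1 and 2. The blanks reached at most 6.14 times and Wnt3a 1.43 to 1.84 times, which lies within the blanks. This ratio grows with the mean level, and every blank lay below Wnt3. It therefore does not show that Wnt3 was more uneven than a blank relative to its level. The blank at 6.14, Blank-34 on coverslip 2, ran from 0.426 to 1.23 counts per cell between the same percentiles. The Wnt3 level of astrocytes per square followed that of the neurons weakly, with r of 0.09, 0.18, 0.37 and 0.21 over 144, 174, 98 and 133 squares of coverslips 3, 4, 1 and 2, which share library and local depth.

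Genes that followed or opposed Wnt3 over these squares were described by their mean correlation over 4 coverslips, on shares of gene counts, with no test. The strongest positive ones were the heparan sulfate proteoglycan genes Sdc3 (r = 0.50) and Gpc6 (0.50), the ligand gene Wnt9a (0.45), Cux2 (0.43) and Gpc1 (0.43), although Gpc1 was at -0.06 on coverslip 1. The strongest negative ones were Ezr (r = -0.55), which links membrane to actin, Fzd1 (-0.49), the ligand gene Wnt11 (-0.49), Tcf7 (-0.48) and the Wnt receptor gene Ror2 (-0.46). All 5 negative genes were negative on each coverslip, but Ezr, Wnt11, Tcf7 and Ror2 were above every blank in the gated neurons on 0 of 4 coverslips. The 40 blanks themselves had a mean r with Wnt3 from -0.13 to 0.24 over the same squares.

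Over whole sections, Slc17a6-positive neurons with more Tcf7l2 counts held more Wnt3. With 0 Tcf7l2 counts these cells held 0.236 ± 0.0776 Wnt3 counts per cell, with 3 to 5 they held 0.679, with 11 to 20 they held 0.997 and with more than 40 they held 2.12 (means of 4 coverslips). The total count per cell also differed between the bins, so the values were also taken per 10000 counts of genes other than Tcf7l2. On that scale Wnt3 stood at 7.62, 11.3, 25.5, 30.4, 32.8, 35.7 and 38.3 in the 7 ascending bins of Tcf7l2. Position moved with this step: cells with fewer than 3 Tcf7l2 counts are the Slc17a6+ Tcf7l2-low class, and few of them lay inside the squares. The gate moved with it too. That class leaves out Cux2-positive and Bcl11b-positive cells, whereas the higher bins are the gated neurons, which keep them.

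Inside the squares the step was absent. There Wnt3 stood at 40.6, 44.5, 36.3, 34.1, 34.7, 37.1 and 39.6 per 10000 counts in the same bins, although the lowest bin held only 21 to 51 cells per coverslip. Outside the squares it stood at 7.38, 7.84, 9.73, 15.0, 20.04, 21.2 and 21.4. Per cell, Wnt3 inside the squares was near level up to 6 to 10 Tcf7l2 counts and then rose. It stood at 0.830, 0.879, 0.873, 0.858, 1.05, 1.46 and 2.20 counts, against 0.230, 0.278, 0.322, 0.419, 0.632, 0.810 and 1.14 outside. Wnt3 thus followed place at each Tcf7l2 level on both scales. In these means it followed Tcf7l2 outside the squares, and inside them only in counts per cell. Inside, however, the coverslips differed per 10000 counts, which was not tested. From 6 to 10 up to more than 40 Tcf7l2 counts, Wnt3 went from 33.3 to 49.4 on coverslip 3. It went from 36.7 to 45.7 on coverslip 4, from 32.9 to 27.8 on coverslip 1 and from 33.4 to 35.4 on coverslip 2. The small bins below reached 59.4 on coverslip 3 and 53.3 on coverslip 4. Over whole sections and per 10000 counts, the sexes overlapped at 3 to 5 and 6 to 10 Tcf7l2 counts. They lay apart from 11 counts on, which was noticed in the data and not tested. In the gated neurons as a whole, 46.5% of tested genes did not overlap between the sexes either, and depth moved with sex. With 11 to 20 counts and with more than 40, Wnt3 stood at 36.7 and 47.5 on coverslip 3 and 34.9 and 44.0 on coverslip 4, and at 28.05 and 27.1 on coverslip 1 and 31.5 and 34.5 on coverslip 2. Wnt3a stood at 3.81 with 0 Tcf7l2 counts and at 5.96 with more than 40, and the median blank at 2.92 and 2.98.

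**Figure D5:**
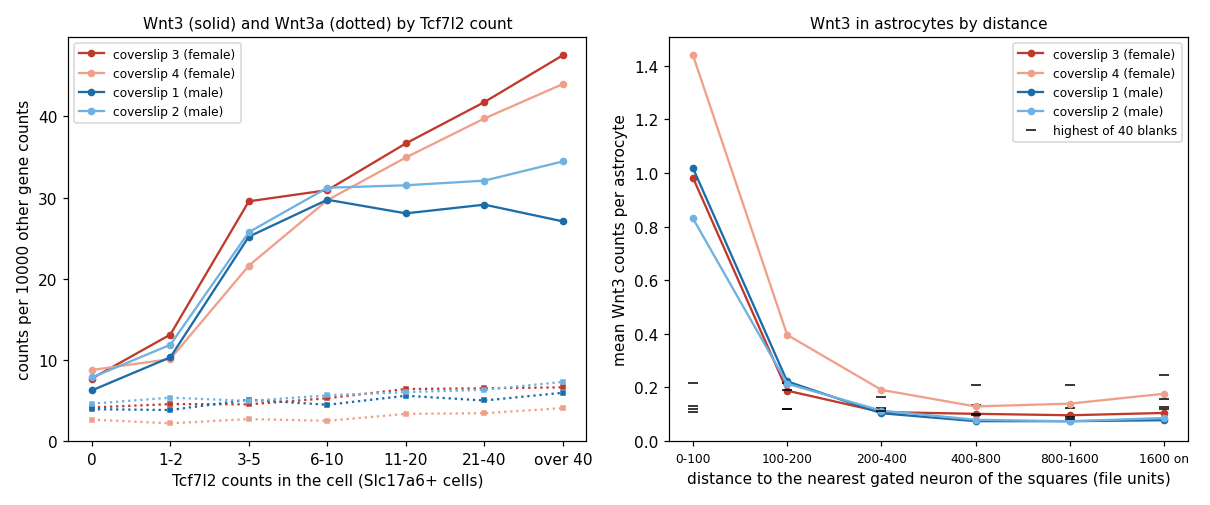
Left, Wnt3 (solid) and Wnt3a (dotted) counts per 10000 other gene counts in Slc17a6-positive neurons, by their Tcf7l2 count; lines are coverslips. Right, mean Wnt3 counts per astrocyte by distance to the nearest gated neuron of the neuron-rich squares, with the highest of 40 blanks as black ticks. Over whole sections Wnt3 is higher from 3 to 5 Tcf7l2 counts on. On this scale that step is absent among cells inside the squares (not drawn). In astrocytes Wnt3 drops within 200 units of the neurons.

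The other Wnt pathway genes of the panel gave the setting of the members. Of 19 ligand and secretion genes, 4 were called higher in the gated neurons than in all other gated cells and 1 lower, with a median log2 difference of 0.54, against 14 higher and 10 lower and a median of 0.17 over all 114 genes. The ligands were Wnt3, Wnt4 (log2 1.78 ± 0.06, 2.19 against 0.601 counts per cell), Wnt9a (1.37 ± 0.10, 0.844 against 0.306) and Wnt3a, and the lower one was Wnt7a (-1.36 ± 0.08, 0.207 against 0.509). Wnt9a was above every blank on 3 of 4 coverslips in the gated neurons, and Wnt4 on 4.

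Of 18 receptor and cofactor genes, 4 were called higher and 2 lower, with a median log2 difference of 0.12. Higher were Fzd10 (log2 2.47 ± 0.19, 1.90 against 0.310 counts per cell), Fzd9 (1.42 ± 0.06), Fzd1 (1.33 ± 0.08) and Ror1 (1.25 ± 0.08), which lay below the highest blank on every coverslip. Lower were the co-receptor gene Lrp5 (-1.63 ± 0.07, 0.219 against 0.640 counts per cell) and Fzd2 (-1.33 ± 0.10). In the gated neurons both were above every blank on 0 of 4 coverslips. In the other cells Lrp5 was above every blank on 4 and Fzd2 on 1. Of 7 antagonist genes, Wif1, whose product binds Wnt proteins outside the cell, was called higher (log2 1.91 ± 0.22, 0.593 against 0.144 counts per cell, above every blank on 2 of 4 coverslips in the gated neurons and on 0 in the others), and the other 6 were not called. Of 13 genes that act inside the cell, Lef1 was called higher (log2 2.75 ± 0.15, 3.38 against 0.449 counts per cell).

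Wnt3, Lef1, Fzd10, Wif1 and Wnt4 were the 5 largest differences higher in the gated neurons. The Wnt lists hold 57 of the 114 tested genes, so pathway genes in such a short list are not particular to it. The 5 largest in the other direction (8.77% of genes were called lower) were Sox9, a transcription factor gene of astrocytes (log2 -1.73 ± 0.06, SE), the proteoglycan gene Sdc4 (-1.67 ± 0.08), Lrp5, the transcription factor gene Tcf4 (-1.63 ± 0.08) and the lipid carrier gene Apoe (-1.39 ± 0.07). No blank or other tested gene reached the log2 ratio of Wnt3.

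Likeness over the 16 classes was read against the blanks. By Pearson correlation of log2 counts per volume, the genes most like Wnt3 were Slc17a6 (r = 0.80), which defined a class, Wif1 (0.80), Wnt9a (0.79), Wnt3a (0.79) and Sfrp5 (0.75). Blank-9 reached 0.88 and Blank-12 0.81, so no gene was more like Wnt3 than these 2 blanks. The genes most like Wnt3a were Meg3 (0.95), Wnt16 (0.95), Sfrp5 (0.94), Peg3 (0.93) and Wif1 (0.92), and Blank-26 reached 0.98. At least 1 blank was thus as close to each member as any gene, and these correlations share the same libraries and classes.

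Female and male coverslips were compared for both members, with depth and sex moving together as given above. In the gated neurons Wnt3 stood at 43.5 and 43.4 per 10000 counts on the female coverslips 3 and 4, and at 29.9 and 33.9 on the male coverslips 1 and 2. The sexes did not overlap, but 46.5% of the tested genes did not overlap either, and the log2 difference of 0.45 ± 0.19 (SE) did not pass the test (edgeR, adjusted p = 0.464). An exact permutation test of 2 against 2 coverslips cannot give a p below 0.333. In this fit edgeR called 0 of 114 genes (0%), while DESeq2 called 3, and 11 genes had a p under 0.05 before adjustment. Over all kept cells Wnt3 differed by 0.38 ± 0.19 (adjusted p = 0.372), where edgeR called 1.43% of 140 genes higher and 3.57% lower.

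Wnt3a differed between the sexes by -0.21 ± 0.26 on the log2 scale in the gated neurons (SE, adjusted p = 0.730) and by -0.25 ± 0.25 over all kept cells (adjusted p = 0.768). Its levels in the gated neurons were 6.68 and 3.95 per 10000 counts on the female coverslips and 5.58 and 6.68 on the male ones, and the groups overlapped. The enrichment of Wnt3 in the gated neurons was 3.08 on female and 2.84 on male coverslips (mean log2 ratios), and the difference of 0.24 ± 0.15 did not pass the test (SE, edgeR, adjusted p = 0.642), where 0 of 114 genes were called (0%) and 9 had a p under 0.05 before adjustment. For Wnt3a the matching ratios were 1.39 and 1.33 (difference 0.06 ± 0.12, adjusted p = 0.916).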

How the data were processed

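The deposited counts are decoded molecules per segmented cell for 140 genes and 40 blank barcodes, per the file headers, and all were whole numbers with no normalization. The deposited files also give each cell's volume and centre as other measures, whose units no label or header names. The authors' decoding and segmentation software is likewise not given in the sources used here. The members, the gene lists, the gates and the comparisons were chosen with earlier results of these data known. Of these, the inside and outside squares, the Tcf7l2 bins and their split by place, the distances and the difference of enrichment between the sexes were added after the data were seen.

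Cells with at least 20 gene counts were kept and gated at 3 or more counts of a marker. A non-neuronal class needed 2 of its markers, except newly formed oligodendrocytes (Enpp6). Cells of several non-neuronal classes were set aside as mixed. So were non-neuronal cells positive for Gad1 or Gad2, or for both Slc17a6 and Tcf7l2, and GABA cells positive for Slc17a6. The remaining cells were sorted in a fixed order. GABA classes came first, then gated neurons, Tcf7l2+ Slc17a6-low cells, layer 4-type, upper-layer-type, deep-layer-type and last Slc17a6+ Tcf7l2-low neurons. The 26 gate genes were left out of the class tests, which leaves 114 genes. Counts were summed per coverslip and class, so the replicate is the coverslip (n = 4). Sums were compared with edgeR 4.0.16 (R 4.3.3), with the log of summed cell volume as offset and coverslip as block. The main class tests used glmTreat against a 2-fold difference, and the added comparisons used glmQLFTest. The sexes were compared with TMM factors and without a block. The p-values were adjusted by the Benjamini-Hochberg method at 0.05 over all genes of a fit. Of the fits, only that of gated neurons against all other gated cells was tried on simulated data. DESeq2 1.42.0 was an alternative. The text names the members, the 5 genes most like each, the 5 largest called differences in each direction and the called genes of the Wnt lists. Files were read with Python 3.11.15 and pandas 2.3.3. Sections were separated by position as connected pieces of squares of side 100. Counting error limits single cells, and blanks limit what a low mean level can show. The replicate numbers of the sexes came from the order of the coverslips and pair nothing.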

Additional observations from a re-analysis of the deposited data

Results flagged for a closer look

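The rise of Wnt3 from outside to inside the squares rich in gated neurons differed between cell classes. The log2 difference was 1.28 between astrocytes and OPC, 1.64 between astrocytes and vascular cells, and 2.23 between astrocytes and gated neurons, each larger in astrocytes by the interaction term of an edgeR fit. The fits called 8.77%, 16.7% and 16.7% of 114 genes in this direction.

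Inside the squares, cells left out of the comparisons carried Wnt3 above every blank on 4 of 4 coverslips. Cells with mixed markers held 1.43 Wnt3 counts per cell inside against 0.194 outside, and cells that passed no gate held 0.196 against 0.105. The outside means lay below the mean highest blank, which was 0.306 for mixed cells and 0.208 for cells of no gate, although on coverslip 4 both outside levels lay above it (0.279 against 0.235 and 0.165 against 0.132).

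Of 38 sets of 4 coverslip values, 2 held a value far from the other 3, where chance gives about 1 in 20. Wnt3a in layer 4-type neurons stood at 0.0716 counts per cell on coverslip 1, which is low. The log2 ratio of Wnt3 per gated neuron inside over outside the squares stood at 1.21 on coverslip 4, which is high.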

How the results depend on the processing

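The enrichment of Wnt3 in the gated neurons kept its direction and call under all 15 alternatives, and without each coverslip in turn its log2 ratio was 2.88 to 3.03. The rise of Wnt3 in astrocytes inside the squares kept both under its 12 alternatives, chosen after seeing the data, at 3.20 to 3.39 without each coverslip. Without the replicate block it was 3.28. The coverslips are the blocks, and the call of Wnt3a against all other gated cells was lost without the replicate block (log2 1.37), with library totals (0.63) and with TMM factors (1.08), and was 1.31 to 1.39 without each coverslip. Its calls against single classes numbered 0 with library totals and 6 to 7 without each coverslip. The calls of Wnt3 numbered 14 without each coverslip. Genes called higher numbered 58 in a test against no difference, 3 with library totals, 6 with TMM factors, 8 with DESeq2, 9 among genes above every blank and 6 without the replicate block, against 14. Genes called lower numbered 34, 24, 16 and 4 with the test against no difference, library totals, TMM factors and no replicate block, against 10. Without each coverslip, 14 to 15 genes were called higher and 9 to 11 lower. The cause of these shifts was not tested.

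Against the other cells of the same squares, library totals gave -0.11 for Wnt3 and 0.48 for Wnt3a, whose call was lost. Without each coverslip these were 0.81 to 0.98 and 1.41 to 1.503. Library totals also turned Wnt3a against the Tcf7l2+ Slc17a6-low cells (-0.048) and against Tcf7l2+ GABA neurons (-0.23), and leaving out female replicate 2 turned the second (-0.017, in a range of -0.017 to 0.53 without each coverslip). The sex difference of Wnt3a turned with cell volume as offset, to 0.15 in gated neurons and 0.14 in all kept cells. Without each coverslip it ran from -0.62 to 0.15 in gated neurons and from -0.59 to 0.020 in all kept cells, positive without female replicate 2. That of Wnt3 ran from 0.37 to 0.56 and from 0.22 to 0.56. With the median blank in place of the highest, the margin was 12.8 for Wnt3 and 1.90 for Wnt3a. Without each coverslip the margin over the highest blank was 2.12 to 3.53 and 0.366 to 0.441.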
